A study of Mus musculus with 8 samples.

Results

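The mitogen-activated protein kinase (MAPK) phosphatase and ERK feedback inhibitor genes are 10 named genes, 7 dual-specificity phosphatases (Dusp1, Dusp4, Dusp5, Dusp6, Dusp8, Dusp10 and Dusp16) and 3 Sprouty-family inhibitors (Spry2, Spry4 and Spred1). They were followed on 5 liver arrays of mice carrying a knockout of Abhd15 (KO) and 3 of wild-type (WT) mice. Each array is taken here as the liver of 1 mouse, though the labels do not list the animals. The genes were chosen by name, with earlier results of these data known. All 10 had at least 1 array cluster annotated to that gene alone, out of 22180 genes so represented. A cluster, or transcript cluster, is the unit for which the Mouse Gene 2.0 ST array gives 1 expression value. Where a gene had several clusters, the one with the highest mean over all 8 arrays was used. Among the 10 genes this concerned Dusp6 alone. All mice were males on the C57BL/6J background, ate normal chow and, by the design text, were 14 weeks old, fasted overnight and refed for 1 hour before the liver was taken. The sample labels instead give the 14 weeks as the longest time on the diet. Abhd15 belongs to the alpha/beta hydrolase family and has been studied mostly in fat tissue, in the control of lipolysis by insulin. The sources used here do not give how the allele was made or in which cells it acts.

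MAPKs are activated when kinases add phosphate to a threonine and a tyrosine of their activation loop, and the dual-specificity MAPK phosphatases remove both. Many of these phosphatases are themselves induced by the pathway they shut off, so their transcripts serve as a record of recent signalling. Sprouty and Spred proteins act further upstream and restrain the step from RAS to RAF after growth factor receptors are engaged. In liver, these pathways respond to growth factors, to hormones of fasting and feeding, and to stress.

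Abhd15 was lower in every KO liver than in any WT liver, with log2 values of 5.14, 5.04, 5.21, 5.18 and 5.04 in KO arrays 1 to 5, against 5.65, 5.81 and 5.46 in WT arrays 1 to 3. Its log2 difference was -0.52 (limma standard error 0.129, adjusted p = 0.795), and the sources used here do not say whether its probes lie in the deleted part. Abhd15 had 2 clusters, and these values are of the one with the higher mean over all arrays. The other cluster is not described here. Array medians lay between 2.99 and 3.05, and array pairs correlated at 0.962 to 0.971 over 41345 clusters, which are not independent replicates. On the first principal component, with 18% of the variance, KO arrays 1 and 2 scored 55.2 and 50.8, while the other arrays lay at 0.22 or below. Each of the 10 genes is therefore also given without that pair of arrays. The second component set KO array 4 apart, at 70.0 against 10.6 for the next array. The 7 measured hepatocyte markers averaged 10.6 to 10.9 in KO arrays and 10.8 to 10.9 in WT arrays, with albumin (Alb) above 12.9 in all 8 livers.

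Dusp1 and Dusp6 had the smallest p-values of the 10 genes, with KO above WT, but no gene passed the test. P-values were adjusted by the Benjamini-Hochberg method over all clusters tested. At an adjusted p of 0.05, 0 of 10 genes were called with limma, as were 0 of all 23521 clusters with a single gene symbol (0%). At an unadjusted p under 0.05, 1 of the 10 was higher in KO, against 2.75% of all clusters, and none was lower, against 3.32%. The KO mean lay above the WT mean in 9 of 10 genes, while 49.6% of all clusters did so, and the median log2 difference of the 10 was 0.16 beside -0.0018 over all clusters. Without KO arrays 1 and 2 the KO mean was above the WT mean in 5 of 10 genes (48.7% of all clusters), and the median difference was 0.0002. Since the genes were chosen with earlier results of these data known, their counts beside all clusters are descriptions and not tests. The array values below are log2 expression values, and since probes differ, levels are compared between livers for 1 gene and never between genes. In whole liver, fewer cells of a type and less RNA per cell cannot be told apart.

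**Figure D1:**
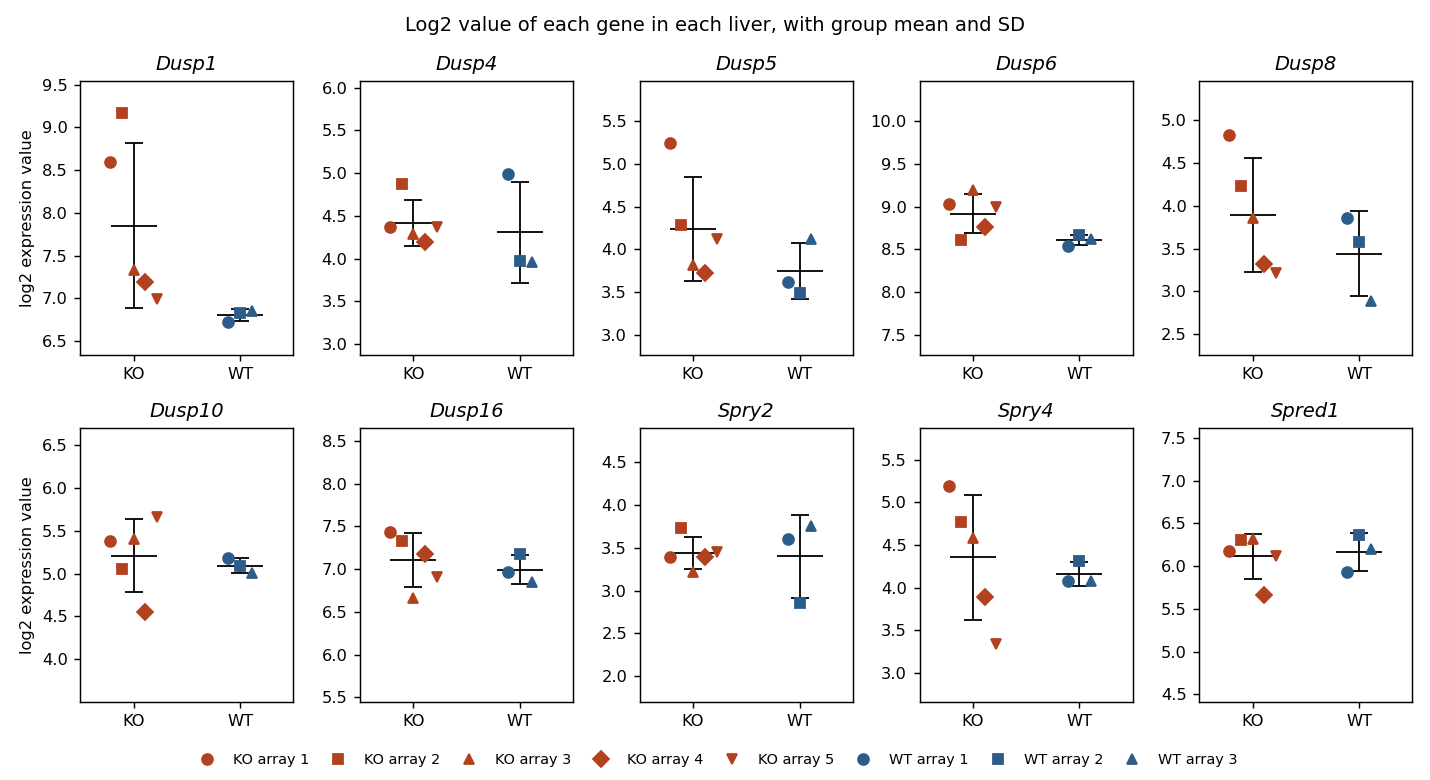
Log2 expression value (vertical axis, each panel spanning the same range of log2 units) of the 10 genes in 5 KO livers (left, red) and 3 WT livers (right, blue). Points are arrays, and bars are the group mean and SD. In Dusp1, KO arrays 1 and 2 read 8.59 and 9.16, above all other livers, while in Dusp6 the highest value is KO array 3 at 9.20.

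Dusp1 encodes a nuclear phosphatase of ERK, JNK and p38 that is made within minutes of mitogens, stress, cAMP or glucocorticoids. It read 8.59, 9.16, 7.33, 7.19 and 6.99 in KO arrays 1 to 5, against 6.72, 6.84 and 6.85 in WT arrays 1 to 3. All KO livers lay above all WT livers, KO arrays 1 and 2 by far the most. It was the 1 gene of the 10 with no overlap and KO higher, a pattern found in 1.99% of all clusters, and no gene of the 10 showed the opposite pattern, found in 2.44%. The KO mean was 7.85 ± 0.97 (SD, n = 5) and the WT mean 6.80 ± 0.071 (SD, n = 3). The log2 difference of 1.05 (limma standard error 0.449, 95% confidence interval 0.05 to 2.04) is 2.07-fold, with an unadjusted p of 0.0406 and an adjusted p of 0.813. The exact permutation test of the means gave a two-sided p of 0.125 over 56 splits of the arrays. Without KO arrays 1 and 2 the difference was 0.37 (limma standard error 0.154, adjusted p = 0.818), still with no overlap, and the exact permutation p was 0.1, the smallest that 20 splits allow. The spread within KO was thus larger than within WT, with most of the difference resting on 2 livers.

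The promoter window of Dusp1 is shown because sites for cAMP-responsive factors bear on how this gene is known to be induced. It comes from RefSeq on GRCm38.p6, chr17:26508423-26508722 on the minus strand, and covers 250 bases before to 50 bases after an annotated start, read 5′ to 3′. Capitals mark a full cAMP response element (CRE, TGACGTCA) 143 bases before the start and a shorter CRE core (TGACG) 191 bases before it.
Dusp1: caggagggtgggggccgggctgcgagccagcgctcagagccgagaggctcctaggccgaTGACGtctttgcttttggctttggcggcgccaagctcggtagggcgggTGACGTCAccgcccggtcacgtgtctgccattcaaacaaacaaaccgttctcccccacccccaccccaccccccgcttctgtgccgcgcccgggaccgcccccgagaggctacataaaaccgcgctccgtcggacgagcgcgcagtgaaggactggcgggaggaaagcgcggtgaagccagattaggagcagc

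Dusp6 encodes a cytoplasmic phosphatase with a strong preference for ERK, and is a classic transcriptional target of ERK itself. KO arrays 1 to 5 read 9.04, 8.61, 9.20, 8.76 and 8.99, and WT arrays 1 to 3 read 8.54, 8.67 and 8.62. The WT livers were close together, 4 of 5 KO livers lay above all of them, and KO array 2 fell within their range. KO averaged 8.92 ± 0.23 (SD, n = 5) and WT 8.61 ± 0.062 (SD, n = 3). The log2 difference was 0.31 (limma standard error 0.154, 95% confidence interval -0.03 to 0.65, adjusted p = 0.838), or 1.24-fold, with an exact permutation p of 0.0893. Without KO arrays 1 and 2 the groups did not overlap and the difference was 0.37 (limma standard error 0.162, adjusted p = 0.818; exact permutation p = 0.1). In that comparison 2 of the 10 genes, Dusp1 and Dusp6, had no overlap with KO higher, against 5.43% of all clusters. The same 2 genes had an unadjusted limma p under 0.05 with KO higher there, against 2.91% of all clusters. The arrays left out were picked from these same data, and KO array 2 was the only KO liver within the WT range for Dusp6. The lack of overlap for Dusp6 thus follows from leaving it out, and these counts are descriptions and not tests. A second Dusp6 cluster averaged 2.53 ± 0.32 (SD, n = 5) in KO and 2.42 ± 0.27 (SD, n = 3) in WT, below every array's median, and is not shown to be above background.

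Dusp5 encodes a nuclear phosphatase that acts on ERK and is induced by serum. It read 5.24, 4.28, 3.82, 3.72 and 4.12 in KO arrays 1 to 5, against 3.62, 3.50 and 4.12 in WT arrays 1 to 3. KO array 1 was the highest liver and KO array 2 the next, and the remaining KO livers overlapped WT. The log2 difference was 0.49 (limma standard error 0.313, adjusted p = 0.87), 0.24 without KO array 1 and 0.14 without KO arrays 1 and 2. Dusp4, a nuclear phosphatase related to Dusp1, read 4.37, 4.87, 4.28, 4.19 and 4.37 in KO arrays against 4.99, 3.97 and 3.96 in WT arrays. WT array 1 was the highest of all 8 livers, and the KO range lay within the WT range. Its difference of 0.11 (limma standard error 0.249, adjusted p = 0.964) was -0.0045 without KO array 2, -0.06 without WT array 2 or WT array 3, 0.45 without WT array 1, and -0.03 without KO arrays 1 and 2.

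Dusp8, Dusp10 and Dusp16 encode phosphatases that prefer the stress-activated kinases JNK and p38. Dusp8 read 4.83, 4.23, 3.86, 3.32 and 3.22 in KO arrays 1 to 5, against 3.85, 3.58 and 2.89 in WT arrays 1 to 3. Again KO arrays 1 and 2 were the highest livers, and the groups overlapped. The value of WT array 3 was below that array's median and is not shown to be above background. Its log2 difference of 0.45 (limma standard error 0.358, adjusted p = 0.892) was 0.03 without KO arrays 1 and 2, 0.22 without KO array 1 alone, 0.18 without WT array 3 and 0.66 without WT array 1. Dusp10 read 5.38, 5.05, 5.41, 4.54 and 5.66 in KO arrays and 5.18, 5.09 and 5.00 in WT arrays. Here KO arrays 5 and 3 were the highest and KO array 4 the lowest of all livers, so that the KO values enclosed the WT values. The difference was 0.12 (limma standard error 0.224, adjusted p = 0.96), 0.11 without KO arrays 1 and 2, and between 0.0036 without KO array 5 and 0.28 without KO array 4. Dusp16 read 7.43, 7.33, 6.66, 7.18 and 6.91 in KO arrays and 6.97, 7.17 and 6.84 in WT arrays. KO arrays 1 and 2 were the highest and KO array 3 the lowest of all livers. Its difference was 0.11 (limma standard error 0.187, adjusted p = 0.953), -0.08 without KO arrays 1 and 2, and between 0.0253 without KO array 1 and 0.22 without KO array 3.

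Spry4, a Sprouty protein induced by ERK signalling that blocks RAF activation, had the widest KO spread of the 3 Sprouty-family genes. It read 5.19, 4.77, 4.58, 3.89 and 3.34 in KO arrays 1 to 5, against 4.08, 4.32 and 4.08 in WT arrays 1 to 3. KO arrays 1 to 3 lay above every WT liver, and KO arrays 4 and 5 lay below every WT liver. The log2 difference was 0.19 (limma standard error 0.352, 95% confidence interval -0.58 to 0.97, adjusted p = 0.956), -0.01 without KO array 1 and -0.22 without KO arrays 1 and 2. Spry2, which binds adaptor proteins of receptor tyrosine kinases, read 3.39, 3.73, 3.22, 3.39 and 3.45 in KO arrays and 3.60, 2.85 and 3.75 in WT arrays. The KO range lay inside the WT range, at values near the array medians, which are not shown to be above background. Its difference was 0.04 (limma standard error 0.207, adjusted p = 0.987), -0.05 without KO arrays 1 and 2, -0.24 without WT array 2 and 0.21 without WT array 3. Spred1, which brings neurofibromin to the membrane to switch off RAS, read 6.17, 6.30, 6.31, 5.66 and 6.11 in KO arrays against 5.93, 6.36 and 6.20 in WT arrays. It was the 1 gene of the 10 with a KO mean below the WT mean, at a log2 difference of -0.05 (limma standard error 0.177, 95% confidence interval -0.44 to 0.34, adjusted p = 0.979). The difference was 0.06 without KO array 4, 0.05 without WT array 2 and -0.14 without KO arrays 1 and 2.

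**Figure D2:**
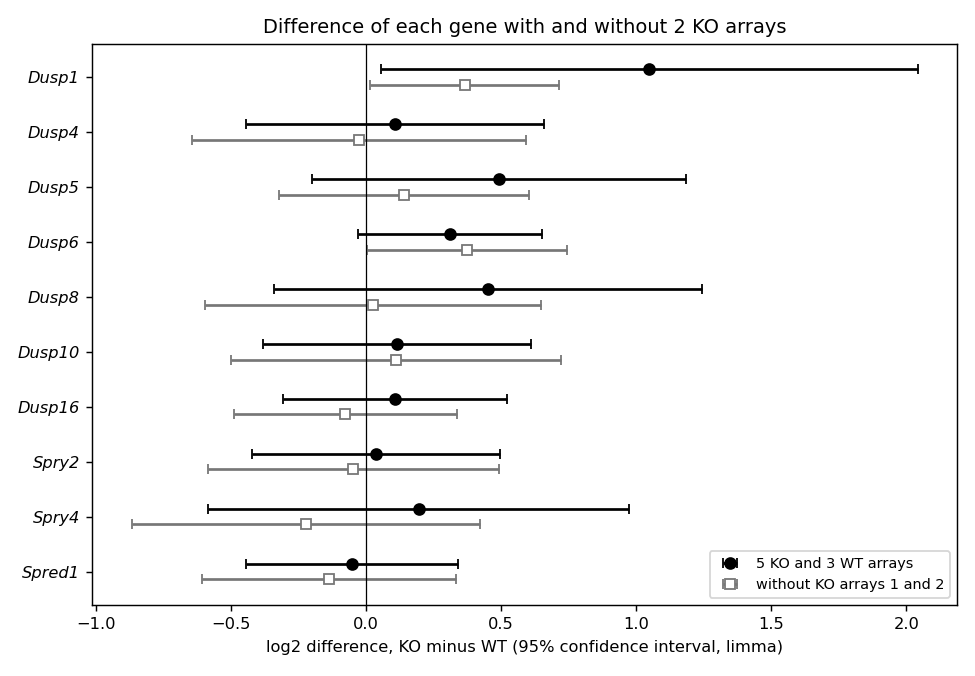
Log2 difference KO minus WT (horizontal axis) of each gene with limma's 95% confidence interval, over 5 KO and 3 WT arrays (filled) and without KO arrays 1 and 2 (open). The interval of Dusp1 runs from 0.05 to 2.04 with all arrays, and its estimate is 0.37 without that pair.

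The genes did not all vary in the same livers. KO arrays 1 and 2 were the highest 2 of the 8 arrays for 5 of the 10 genes, Dusp1, Dusp5, Dusp8, Dusp16 and Spry4, while this held for 5.61% of all clusters. Relative to the WT mean, KO array 1 lay higher by 1.79 for Dusp1, 1.498 for Dusp5, 1.39 for Dusp8 and 1.03 for Spry4, in log2 units. KO array 2 lay higher by 2.36, 0.54, 0.79 and 0.60 for the same genes, so Dusp1 was highest in KO array 2 and the other 3 genes in KO array 1. Dusp6 followed that pattern in part, since KO array 1 was its second-highest array, at 0.43 above the WT mean, while KO array 2 was 0.0040 above it and within the WT range. Across the 8 arrays Dusp1 correlated with Dusp8 at 0.75, Spry4 at 0.72, Dusp5 at 0.70 and Dusp16 at 0.66, but with Dusp6 at 0.13 and Dusp10 at 0.04. The highest correlation among the 10 genes was 0.84, between Dusp8 and Spry4. These are Pearson values over 8 shared arrays, in which KO arrays 1 and 2 weigh heavily.

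**Figure D3:**
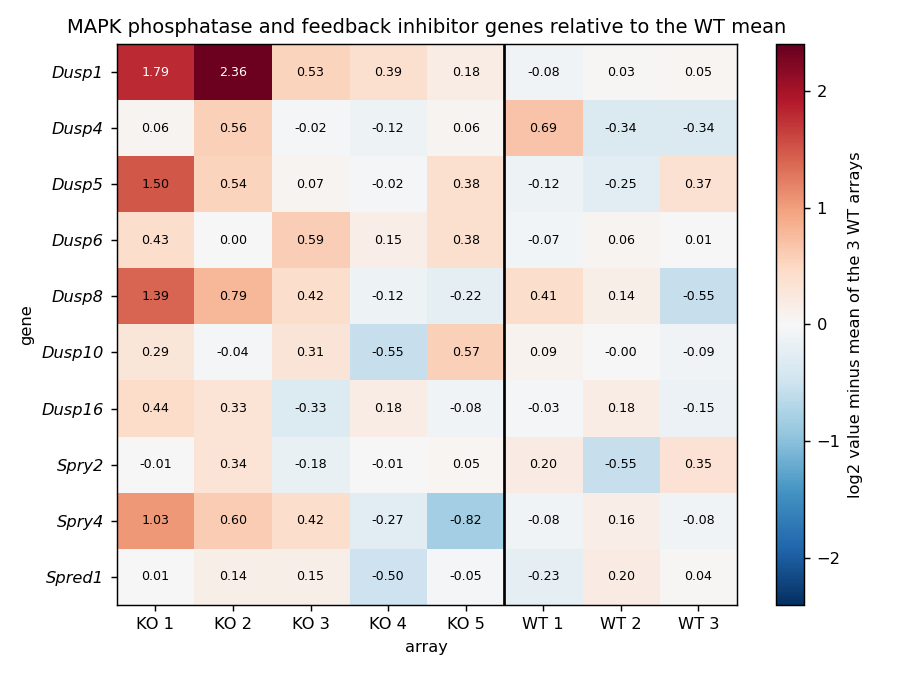
Log2 value minus the mean of the 3 WT arrays, for each gene (rows) in each array (columns, KO left of the line and WT right of it). Red is above and blue below the WT mean, and the strongest red is Dusp1 in KO array 2, at 2.36.

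Promoter windows of 8 of the 10 genes were searched on both strands, with no window used for Dusp4 and Spry4. The motifs were CRE, its shorter core outside a full CRE (TGACG) and AP-1 sites (TGAGTCA). The others were an extended ETS site (CCGGAAG) and the CArG box of serum response factor. A full CRE was found in 2 of the 8, Dusp1 and Dusp8, and in 1.79% of 32851 mouse windows of the same length. Dusp8 held 2 of them, 107 and 63 bases before the start, as did 0.0396% of all windows. Dusp5 held 2 adjoining CArG boxes, 82 and 72 bases before the start, with 2 or more found in 0.0183% of windows and at least 1 in 1.63%. The shorter core lay in Dusp1, Dusp5 and Dusp16 (19.5% of windows). AP-1 sites (5.2% of windows) and the extended ETS site (8.86%) were in none of the 8. The bare ETS core GGAA was not searched, so its absence is not shown. A match describes the letters and does not show that a factor binds there. The windows of Dusp8 (chr7:142095235-142095534, minus strand) and Dusp5 (chr19:53528895-53529194, plus strand) are shown for these sites, in capitals. That of Dusp6 (chr10:99262981-99263280, plus strand), which held none of the 5 motifs, like those of Dusp10, Spry2 and Spred1, is shown because Dusp6 had the second-smallest p of the 10 genes.
Dusp8: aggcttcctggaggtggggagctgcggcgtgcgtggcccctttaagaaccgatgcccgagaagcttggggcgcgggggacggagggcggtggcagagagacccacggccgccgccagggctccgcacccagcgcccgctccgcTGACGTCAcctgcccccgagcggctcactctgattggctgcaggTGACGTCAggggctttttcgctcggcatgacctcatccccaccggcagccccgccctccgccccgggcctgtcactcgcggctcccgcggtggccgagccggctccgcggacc
Dusp5: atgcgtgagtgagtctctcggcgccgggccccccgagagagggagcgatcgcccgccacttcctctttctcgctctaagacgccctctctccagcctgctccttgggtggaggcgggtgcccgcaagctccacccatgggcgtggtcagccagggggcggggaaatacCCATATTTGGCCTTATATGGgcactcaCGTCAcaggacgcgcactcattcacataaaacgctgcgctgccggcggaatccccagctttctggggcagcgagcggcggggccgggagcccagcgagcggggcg
Dusp6: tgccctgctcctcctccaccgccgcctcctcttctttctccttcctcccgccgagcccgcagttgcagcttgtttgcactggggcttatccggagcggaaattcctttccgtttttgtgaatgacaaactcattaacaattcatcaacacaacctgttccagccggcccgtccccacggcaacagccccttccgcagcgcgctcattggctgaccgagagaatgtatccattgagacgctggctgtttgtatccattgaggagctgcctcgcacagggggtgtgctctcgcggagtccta

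The other genes of these families and pathways were counted from lists, in which no gene passed limma's adjusted threshold. Medians are log2 differences, KO minus WT. Of the other 3 MAPK phosphatases, 2 had a higher KO mean, with differences of -0.07 (limma standard error 0.167) for Dusp7, an ERK phosphatase, and 0.09 (limma standard error 0.254) for Dusp2, a nuclear phosphatase of immune cells. The sign turned for Dusp7 without KO array 2 or WT array 1, and for Dusp2 without KO array 1 or WT array 2. Of the other 4 Sprouty and Spred genes, 3 were higher, with differences of -0.22 (limma standard error 0.231) for Spry1 and 0.17 (limma standard error 0.18) for the dim Spry3. Leaving out 1 WT array moved Spry1 to -0.10 (WT array 2) or -0.39 (WT array 3), and Spry3 to 0.0368 (WT array 1) or 0.26 (WT array 2). The 13 atypical dual-specificity phosphatases, small enzymes without the MAPK-binding domain, had 4 higher and 9 lower, where 49.6% of all clusters were higher, and a median of -0.15. Of the 13, 2 had an unadjusted limma p under 0.05 with KO lower, against 3.32% of all clusters. Dusp22, known as a regulator of JNK signalling, read 5.76, 5.87, 6.16, 6.02 and 6.10 in KO arrays 1 to 5, against 6.32, 6.51 and 6.26 in WT arrays 1 to 3. No KO liver reached a WT liver, a pattern of 1 of the 13 genes and of 2.44% of all clusters. The log2 difference of Dusp22 was -0.38 (limma standard error 0.14, adjusted p = 0.795), or -0.27 without KO arrays 1 and 2. The other, Dusp23, had a difference of -0.42 (limma standard error 0.188, adjusted p = 0.82), or -0.52 without that pair.

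Upstream of the phosphatases, the lists were divided in direction. Receptors and ligands had 7 of 19 measured genes higher and a median of -0.07, with -0.66 (limma standard error 0.276, adjusted p = 0.804) for the receptor Erbb2 and -0.52 (limma standard error 0.242) for Fgfr3. Without KO arrays 1 and 2 they differed by -0.63 and -0.37. Erbb2 was dim, at 2.31 in KO array 1 and 3.97 in WT array 1, and is not shown to be above background. The RAS-RAF-ERK cascade had 10 of 18 higher and a median of 0.03. Rras, a small GTPase related to RAS, differed by 0.47 (limma standard error 0.178, adjusted p = 0.795), and Mknk2, a kinase downstream of ERK, by 0.41 (limma standard error 0.221). Without KO arrays 1 and 2 these were 0.35 and 0.17, and Rras was 0.28 without WT array 1. The JNK and p38 cascade had 9 of 20 higher and a median of -0.01. Mapk12, the gene of p38 gamma, read 4.38, 4.09, 3.16, 3.97 and 3.73 in KO arrays 1 to 5, against 4.53, 4.73 and 4.52 in WT arrays 1 to 3. All KO livers lay below all WT livers, as for 2 of the 20 genes in this list and 2.44% of all clusters. The Mapk12 difference was -0.73 (limma standard error 0.238, adjusted p = 0.795), or -0.97 without KO arrays 1 and 2. The p38 kinase kinase Map2k6 differed by 0.67 (limma standard error 0.393), by 0.86 without that pair and by 0.39 without WT array 1. Other inhibitors of receptor and RAF signalling had 9 of 14 higher and a median of 0.06, which was -0.09 without KO arrays 1 and 2. Lrig1, a negative regulator of ERBB receptors, differed by 0.28 (limma standard error 0.162) and Il17rd, an inhibitor of FGF signalling, by -0.21 (limma standard error 0.173). Without that pair they differed by 0.17 and -0.22, and Il17rd by -0.0319 without WT array 3 and -0.36 without WT array 1.

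Genes known as outputs of ERK, cAMP or glucocorticoid signalling had higher list means in KO arrays 1 and 2. The mean log2 value of 14 measured ERK output genes was 4.97, 5.27, 4.56, 4.29 and 4.25 in KO arrays 1 to 5, against 4.34, 4.44 and 4.26 in WT arrays 1 to 3. Of these, 9 were higher, with a median of 0.36 that was 0.05 without KO arrays 1 and 2. Their smallest p belonged to Epha4, an ephrin receptor, with a difference of 0.46 (limma standard error 0.141, adjusted p = 0.795) at a level near the array medians. The Epha4 difference was 0.42 without that pair. Ier3, an immediate early survival gene, followed with 0.70 (limma standard error 0.336), or 0.20 without that pair. All KO livers lay above all WT livers for both Epha4 and Ier3, 2 of the 14 genes, against 1.99% of all clusters. The 10 cAMP and CREB response genes averaged 5.47 and 5.18 in KO arrays 1 and 2, 4.12 to 4.26 in KO arrays 3 to 5, and 4.10 to 4.26 in WT arrays. Their median was 0.40, and 0.04 without that pair. The early transcription factors Fosb and Nr4a1 in this list differed by 1.15 (limma standard error 0.632) and 1.30 (limma standard error 0.721), and by 0.15 and 0.19 without that pair. Outside KO arrays 1 and 2, Fosb lay near or below the array medians and is not shown to be above background. The 10 glucocorticoid response genes, with 7 higher, had a median of 0.20, and -0.07 without that pair. In this list the metallothionein Mt2 differed by 0.85 (limma standard error 0.244) and the clock repressor Per1 by 0.65 (limma standard error 0.201), with adjusted p = 0.795 for both. Unlike the list median, both remained positive without that pair, at 0.66 for Mt2 and 0.52 for Per1.

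**Figure D4:**
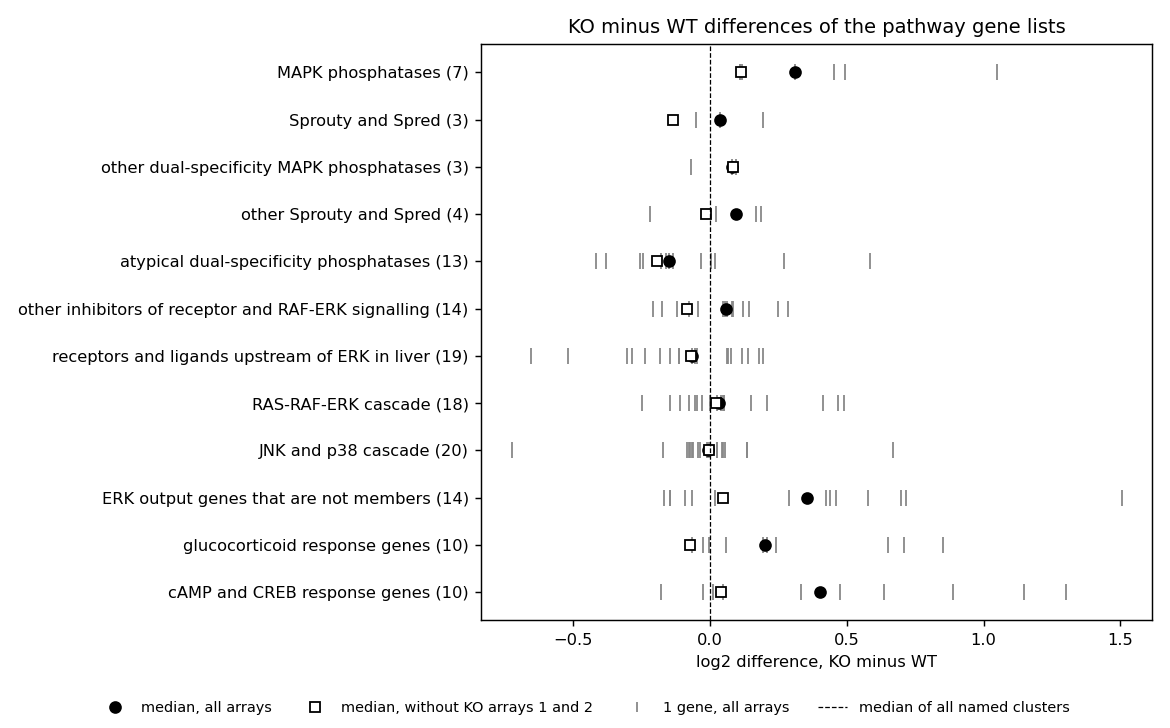
Log2 difference KO minus WT (horizontal axis) for the genes of each list (ticks), with the list median over all arrays (filled) and without KO arrays 1 and 2 (open). The number of measured genes follows each name, and the dashed line is the median of all named clusters. The medians of the ERK output and cAMP lists lie at 0.36 and 0.40 with all arrays and at 0.05 and 0.04 without the pair.

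Among 7478 genes with a mean of at least 5, the 5 whose array pattern was most like Dusp1 were Glt1d1 (Pearson r = 0.981), Dnajb1 (0.975), G6pc (0.971), Plk3 (0.965) and Kdm7a (0.965), each over 8 arrays. Dnajb1 encodes an HSP40 co-chaperone, G6pc a glucose-6-phosphatase that releases glucose from the liver, and Plk3 a polo-like kinase of the stress response. All 5 were highest in KO array 2 and next in KO array 1, as Dusp1 was, which follows largely from how they were chosen. Of these 5, Plk3 alone had groups that did not overlap. It read 8.76, 8.86, 7.09, 7.23 and 7.21 in KO arrays 1 to 5, against 6.63, 6.99 and 6.44 in WT arrays 1 to 3. The genes most like Dusp6 were Taf8 (0.962), Wdr12 (0.922), Trp53i11 (0.896), Gm6570 (0.893) and Urad (0.893). Taf8, a subunit of the general factor TFIID, was the only gene of these 5 whose groups did not overlap. It read 5.87, 5.64, 5.94, 5.67 and 5.76 in KO arrays and 5.48, 5.58 and 5.50 in WT arrays.

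**Figure D5:**
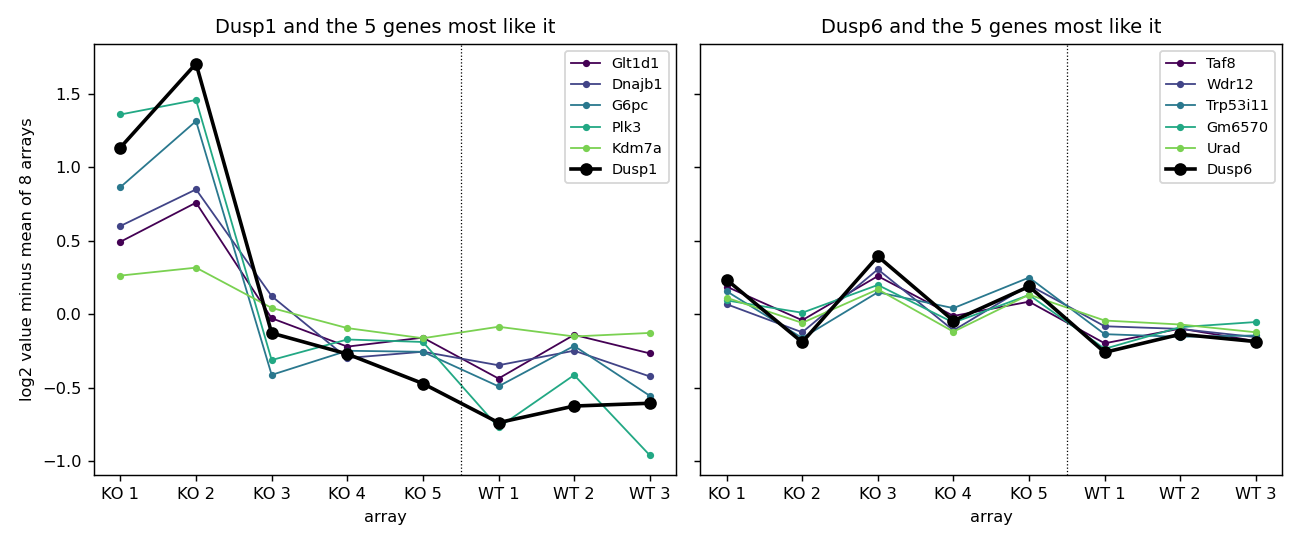
Log2 value minus the mean of the 8 arrays (vertical axis) for Dusp1 (left, black) and Dusp6 (right, black) with the 5 genes most like each, by array (KO left of the dotted line, WT right of it). The left profiles, chosen for likeness to Dusp1, peak with it in KO array 2, and Dusp6 peaks in KO array 3.

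Macrophages also respond through these phosphatases, and macrophage markers were uneven between livers. The mean of the 8 markers was 7.01, 6.69, 7.10, 5.94 and 6.27 in KO arrays 1 to 5, against 6.50, 6.06 and 6.55 in WT arrays 1 to 3, with 6 of 8 higher in KO and the lowest single value, of Marco in KO array 4, at 3.43. Their summed linear level was 652 to 1340 in KO livers and 679 to 969 in WT livers. KO array 3 had the highest marker mean and also the highest Dusp6. KO array 4 had the lowest marker mean and the lowest Dusp10 and Spred1. Other values went the other way. In KO array 4, Dusp6 read 8.76, above every WT liver, and Dusp10 was highest in KO array 5. KO array 2, with a marker mean of 6.69 above every WT liver, had Dusp6 within the WT range. The 7 neutrophil markers averaged 2.23 to 2.80 in KO arrays and 2.24 to 2.35 in WT arrays, below the array medians. Sinusoidal endothelial markers averaged 7.32 to 7.51 in KO and 7.36 to 7.40 in WT, stellate cell markers 6.09 to 6.33 in KO and 6.12 to 6.22 in WT, and cholangiocyte markers 3.32 to 3.59 in KO and 3.26 to 3.64 in WT. These means hide 2 genes whose groups did not overlap, chosen after their values were seen. Over all clusters, 1.99% did not overlap with KO higher and 2.44% with KO lower. Each of the 2 genes went against most of its list. The endothelial list had 3 genes higher and 5 lower in KO (median -0.04), and the stellate list 5 higher and 3 lower (median 0.03). The endothelial marker Lyve1 differed by 0.65 (limma standard error 0.164, adjusted p = 0.795), or 0.53 without KO arrays 1 and 2, and the stellate cell marker Lrat by -0.34 (limma standard error 0.136, adjusted p = 0.795), or -0.28 without that pair. The part of these cells in the phosphatase values was not tested.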

How the data were processed

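Liver RNA (200 ng per sample, per the labels' protocols) of Abhd15 KO and WT mice was hybridised to 5 KO and 3 WT arrays, each taken as 1 mouse. Groups and replicate numbers come from the sample titles. The animals are not listed in the labels, so the p-values reflect the spread among these samples, which may be technical in part. The authors deposited expression values on a log2 scale for 41345 clusters, with the scale inferred from the range of the values. The submitters' processing notes name RMA and the oligo package, and the design text names Expression Console. The sources used here do not give versions, settings or filters. The usual form of RMA shrinks the differences of dim clusters.

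Clusters were named through the platform annotation, with 23521 carrying 1 symbol, 1814 several and 16010 none. KO minus WT was tested with limma 3.58.1 in R 4.3.3 (data.table version 1.17.8) over all 8 arrays, without covariates and with 6 residual degrees of freedom. P-values are two-sided and Benjamini-Hochberg adjusted over the 23521 clusters, at a threshold of 0.05. The fit was tested on simulated data. For each gene the group means were compared by an exact permutation test as well. Precision is limited by the number of arrays, and no slide or scan date was used here. Genes and lists were chosen with earlier results of these data known. All 10 genes are described, and from each of the other pathway lists the 2 genes with the smallest limma p are named. Promoter sequences are RefSeq's, and the values name no genome build.

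Same-numbered KO and WT arrays shared no deviation from their group means (r = -0.048, 0.016 and 0.021 for numbers 1, 2 and 3), so the number was not used as a block. Alternatives were trend and robust settings, a filter on dim clusters, all clusters, renewed quantile or median normalization, array weights, the replicate block, the mean of a gene's clusters, and arrays left out.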

Additional observations from a re-analysis of the deposited data

Results flagged for a closer look

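In the KO group, Dusp4 read 4.87 in KO array 2, apart from the nearest other KO array at 4.37, with a gap of 0.738 of the group's whole range against Dixon's critical value of 0.71 for 5 samples. It was the 1 gene so marked of 41 genes examined in this way, where chance marks about 1 in 20 groups. The WT group of 3 arrays is too small for this check.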

How the results depend on the processing

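The 10 genes had adjusted p-values between 0.593 and 0.999 in all 165 values over the alternatives run, so none was called in any of them. The differences of Dusp1, Dusp5, Dusp6, Dusp8 and Dusp10 kept their positive sign in every alternative, with ranges of 0.37 to 1.56 for Dusp1 and 0.21 to 0.39 for Dusp6. Signs turned without KO arrays 1 and 2 for Dusp4 (-0.026), Dusp16 (-0.0763), Spry2 (-0.0467) and Spry4 (-0.22). Leaving out 1 array at a time gave 0.24 to 0.68 for Dusp5, 0.18 to 0.66 for Dusp8, 0.0036 to 0.28 for Dusp10, 0.0253 to 0.22 for Dusp16, -0.0635 to 0.45 for Dusp4, -0.24 to 0.21 for Spry2, -0.0149 to 0.45 for Spry4 and -0.17 to 0.0592 for Spred1. With the replicate block Spred1 was 0.10, and the block, for which the numbers give no ground, called 1 cluster. The median difference of the 10 genes was 0.10 to 0.30 with 1 array left out. The number of genes with all KO arrays above all WT arrays was 1 to 2 with 1 array left out and 2 without KO arrays 1 and 2. Leaving out KO array 2, WT array 1 or WT array 3 gave 2. The share of all clusters with this pattern also rose, from 1.99% with all arrays to 5.43% without KO arrays 1 and 2. It was not computed with 1 array left out, so the change from 1 to 2 is not read as a result about the genes. Over all clusters, limma's count of 0 calls (1429 at an unadjusted p under 0.05) became 3 with trend and robust settings, 1 among clusters with a mean of at least 5, and 3 with every cluster tested, and was 0 with any 1 array left out. None of these calls was 1 of the 10 genes. The cause of these shifts was not tested. In the main fit of 5 and 3 arrays, limma's 95% confidence interval of the difference included 0 for 9 of the 10 genes, all except Dusp1. For Dusp1 this depended on the setting. Its unadjusted limma p was 0.0883 with trend and robust settings, 0.0585 with every cluster tested, 0.0825 without KO array 1 and 0.0941 without WT array 1. It was 0.0355 with renewed quantile normalization and 0.0273 with array weights. With trend and robust settings, Dusp6 had an unadjusted limma p of 0.0231.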
